A study of Mus musculus with 24 samples.

Results

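The genes described here encode ankyrin repeat proteins of muscle and proteins of the Z-disc, the plate that anchors the thin filaments at either end of a sarcomere. They were chosen as the probe sets of a list of 10 genes, which were Ankrd1, Ankrd2, Ankrd23, Csrp3, Tcap, Xirp1, Myoz1, Myoz2, Ldb3 and Actn2. Of these, 9 genes had a listed probe set, with 13 probe sets among the 19294 tested, and together they are 9 of 11098 genes. Ankrd23 had no listed probe set and is not analysed here.

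The measured tissue was gastrocnemius and plantaris muscle of male mice bought at 6 weeks of age, which were hind limb unloaded (HU) for 6 days or kept weight bearing (WB). The genotypes were Nfkb1-/- (B6;129P2-Nfkb1tm1Bal/J), Bcl3-/- (FVB;129P2-Bcl3tm1Ver/J) and wild type (WT, B6129PF2/J), with 4 arrays in each of the 6 groups and 24 arrays in all. Nfkb1-/- mice lack p105 and its product p50, a subunit of NF-κB, and Bcl3-/- mice lack Bcl-3, a nuclear protein that binds p50 dimers, in every tissue of the animal. The Bcl3-/- mice also carry an FVB background that the other groups do not have. RNA of whole muscle was measured. A change in an intensity therefore cannot be told apart from a change in the share of fibre types or other cells, and fewer cells of a type cannot be told apart from less RNA per cell.

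The Z-disc is more than an anchor, because many of its proteins sense stretch and some of them move to the nucleus. Ankrd1 (CARP), Ankrd2 (Arpp) and Ankrd23 (DARP) form a family that binds titin and calpain 3 near the I-band and also binds transcription regulators, and Ankrd1 is known for its large response to injury, denervation and stretch of skeletal muscle. Csrp3 (muscle LIM protein), Tcap (telethonin, the cap on the end of titin) and Xirp1 (Xin, an actin-binding protein of remodelling myofibrils) are load-related partners, Myoz1 and Myoz2 (calsarcins) tether calcineurin to the Z-disc, Ldb3 (ZASP or Cypher) is a PDZ-LIM scaffold and Actn2 is the α-actinin that cross-links actin there. Csrp3, Ankrd2 and Myoz2 are known to be richer in slow fibres of rodents, and Myoz1 in fast fibres.

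All values are the deposited linear intensities, and log2 differences are HU minus WB unless stated. The 24 arrays were on 2 scales. Array medians over all probe sets were 81.1 to 86.8 on the 8 Bcl3-/- arrays and 11.6 to 11.9 on the 16 Nfkb1-/- and WT arrays, so an intensity of a Bcl3-/- mouse was never set against one of another genotype. No label names a batch, and the step that made the scales differ is not known. Genotype, strain and scale of the Bcl3-/- arrays cannot be told apart, and for them only changes within that scale and differences between such changes are given. The deletions could not be read from these values. Nfkb1 had no listed probe set, and the Bcl3 probe set ranked low on every array, at the 22.9th to 30.8th percentile on Bcl3-/- arrays, the 24.3rd to 31.7th on Nfkb1-/- arrays and the 16.9th to 28.2nd on WT arrays. The 10 skeletal muscle markers checked, such as Acta1 and Ckm, had a lowest percentile of 94.5 on any array, and no pair of arrays held identical values. The labels name the 4 arrays of a group as biological replicates, and their number limits the precision.

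Of the 9 genes, 1 rose and 0 fell with unloading in Nfkb1-/- mice, where 11.4% of all probe sets tested were called (4.79% higher and 6.59% lower). The Bcl3-/- mice had 0 that rose and 1 that fell, where 10.4% were called (7.59% higher and 2.81% lower). The WT mice had 1 that rose and 0 that fell, where 3.97% were called (2.31% higher and 1.66% lower). A call is a Benjamini-Hochberg adjusted p under 0.05 over all 19294 probe sets in limma. Shares of all probe sets, here and below, depend on the intensity filter. It was passed by 19285 on Bcl3-/- arrays but 9722 on WT and Nfkb1-/- arrays. With the filter within each intensity scale, 934 of 9722 were called in WT and 2236 of 9722 in Nfkb1-/- mice. Over all 19294 these counts were 766 and 2196, so the shares given for these genotypes are lower. Bcl3-/- mice had 2008 of 19285, against 2007 of 19294. The gene that rose in Nfkb1-/- and WT mice was Ankrd1, and the gene that fell in Bcl3-/- mice was Actn2. The median log2 difference of the 9 genes was 0.18 in Nfkb1-/-, -0.11 in Bcl3-/- and 0.13 in WT mice, against medians of 0.00, 0.02 and -0.01 over all probe sets tested. With 1 of 9 genes called in each genotype the counts say little about the list, and what follows is about single genes.

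The genes differed among themselves mainly in how much arrays of the same group varied. The pooled within-group SD on the log2 scale was 0.77 for Ankrd1, 0.73 for Ankrd2 and 0.70 for Csrp3, which lay at or above the 99.7th percentile of all probe sets, against a median SD of 0.16. Xirp1 (0.40) and Myoz2 (0.36) were also above the 97th percentile. Tcap (0.10), Myoz1 (0.11) and Ldb3 (0.12) were below the 18th percentile, and Actn2 (0.22) lay between these groups. These are values of the brightest probe set of each gene. The dimmer Myoz1 probe set was at the 78.9th percentile (SD 0.21), and the dimmer Ldb3 probe sets were at the 63.0th (0.18) and 93.9th (0.29), so the low spread of these genes holds for their brightest probe sets. The pooled SD hides a wider spread on HU arrays. For Ankrd2 the SD was 0.80, 1.19 and 0.99 on Nfkb1-/-, Bcl3-/- and WT HU arrays, against 0.30, 0.19 and 0.24 on WB arrays. For Csrp3 it was 0.58, 1.32 and 0.77 against 0.21, 0.26 and 0.37. For Ankrd1 it was 1.05, 0.73 and 0.99 against 0.19, 0.93 and 0.28, so its Bcl3-/- arrays were the exception. The tests used 1 pooled spread per probe set for all groups.

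**Figure D1:**
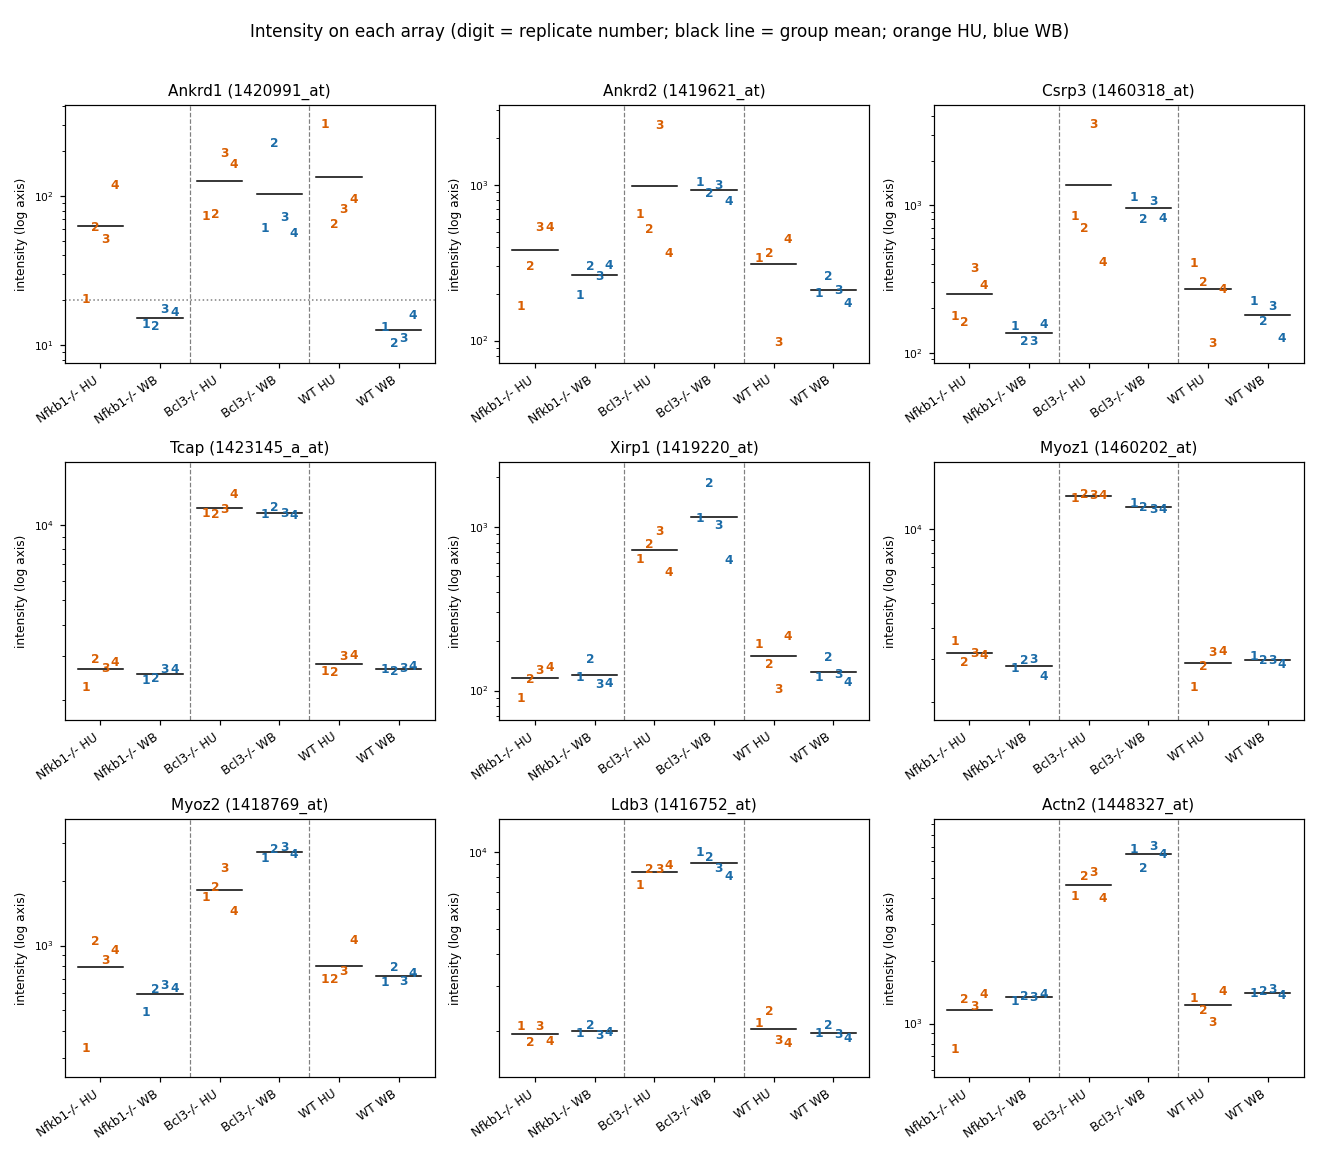
Intensity of each of the 9 genes (log axis, deposited linear units, 1 probe set a gene) on the 24 arrays, with HU in orange and WB in blue. Digits are replicate numbers, black lines are group means, and the dotted line in the Ankrd1 panel marks an intensity of 20. Ankrd1 stands apart between HU and WB in Nfkb1-/- and WT mice only, and Bcl3-/- arrays are on their own scale.

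The bases before the transcript start are shown for the genes on which the results turn, the variable genes Ankrd1, Ankrd2 and Csrp3 and the gene called in Bcl3-/- mice, Actn2. The sequences are from RefSeq (GRCm38.p6), 250 bases upstream of the start, written 5′ to 3′ on the strand of the gene. Capitals mark the MCAT motif (CATTCC or its reverse complement), the E-box (CANNTG) and the TATA motif (TATAAA). These bind TEAD factors, the wide family of factors that includes MyoD, and the TATA-binding protein. The marked letters do not tell which member of that family binds an E-box.
Ankrd1, chr19:36119845-36120094, minus strand: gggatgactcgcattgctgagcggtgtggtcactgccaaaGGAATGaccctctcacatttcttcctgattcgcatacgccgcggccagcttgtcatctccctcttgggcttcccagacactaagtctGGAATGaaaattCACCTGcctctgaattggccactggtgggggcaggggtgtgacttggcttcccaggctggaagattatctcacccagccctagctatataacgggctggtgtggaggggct
Ankrd2, chr19:42035777-42036026, plus strand: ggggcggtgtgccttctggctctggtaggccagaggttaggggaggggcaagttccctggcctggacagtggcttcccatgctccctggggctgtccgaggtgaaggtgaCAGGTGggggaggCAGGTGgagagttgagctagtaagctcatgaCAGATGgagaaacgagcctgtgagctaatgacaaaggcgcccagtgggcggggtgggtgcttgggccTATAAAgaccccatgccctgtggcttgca
Csrp3, chr7:48848052-48848301, minus strand: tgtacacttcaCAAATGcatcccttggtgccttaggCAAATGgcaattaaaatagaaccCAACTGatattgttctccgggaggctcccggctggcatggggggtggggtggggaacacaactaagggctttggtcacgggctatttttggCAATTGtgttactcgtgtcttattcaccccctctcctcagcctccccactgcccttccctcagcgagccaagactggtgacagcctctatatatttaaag
Actn2, chr13:12340733-12340982, minus strand: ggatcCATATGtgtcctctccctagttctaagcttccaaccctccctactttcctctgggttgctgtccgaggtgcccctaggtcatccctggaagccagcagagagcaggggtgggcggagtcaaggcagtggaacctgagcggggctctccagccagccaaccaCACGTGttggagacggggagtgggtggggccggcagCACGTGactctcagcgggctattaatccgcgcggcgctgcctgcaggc
The Ankrd1 window held 2 MCAT motifs, both on the reverse strand, 210 and 123 bases before the start, and 1 E-box at 111 bases. Ankrd2 held 3 E-boxes and a TATA motif 29 bases before the start, Csrp3 held 4 E-boxes and Actn2 held 3. On both strands, 12.6% of 32851 windows of this length held an MCAT motif, 66.2% an E-box and 12.4% a TATA motif. A match to the κB consensus, the motif read by NF-κB, was found in the windows of Csrp3 (overlapping matches on both strands, 173 and 172 bases before the start) and Actn2 (107 bases), and in 7.25% of all windows. An Ldb3 window also held a match, 46 bases before the start, and the window of another Csrp3 start held none. The letters of that consensus were not in the Ankrd1 and Ankrd2 windows. These are matches of letters only. The windows of Ankrd23, Ldb3 and Myoz2 are not shown, and Tcap, Xirp1 and Myoz1 had no window.

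Ankrd1 was the member with the largest response in Nfkb1-/- and WT mice, but not in Bcl3-/- mice. Its intensity was 20.4, 61.4, 51.0 and 118 on the HU arrays of Nfkb1-/- mice, against 13.7, 13.3, 17.2 and 16.6 on their WB arrays. Bcl3-/- mice had 72.8, 75.2, 192 and 162 on HU arrays and 60.8, 225, 72.3 and 55.7 on WB arrays. WT mice had 300.2, 64.2, 81.3 and 94.2 on HU arrays and 13.1, 10.3, 11.0 and 15.9 on WB arrays. In Nfkb1-/- and WT mice every HU array was above every WB array, as was so for 7.71% and 5.86% of all probe sets, although Nfkb1-/- HU replicate 1 was only just above, whereas the Bcl3-/- groups overlapped, with WB replicate 2 the highest array of both.

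Unloading raised Ankrd1 by 1.79 on the log2 scale in Nfkb1-/- mice (SE 0.48, 3.46-fold, limma adjusted p = 0.0158) and by 3.15 in WT mice (SE 0.48, 8.89-fold, limma adjusted p = 0.000594). In Bcl3-/- mice the difference was 0.41 (SE 0.48, 95% confidence interval -0.58 to 1.40, limma adjusted p = 0.638). The other Ankrd1 probe set gave 2.04, 0.59 and 3.61 in the same order of genotypes, with limma adjusted p of 0.00712, 0.474 and 0.000112. All WB intensities of Ankrd1 in Nfkb1-/- and WT mice were under 20, the intensity that a tested probe set had to pass. With every intensity under 20 set to 20, the WT difference was 2.46 (limma adjusted p = 0.0067) and the Nfkb1-/- difference was 1.39 and no longer called (limma adjusted p = 0.0965). The Nfkb1-/- call was also lost without HU replicate 4 (1.40, limma adjusted p = 0.0639). Both calls were lost with the methods' t-test in place of limma, run on the probe sets tested here. The study itself, with its own filter, listed Ankrd1 as upregulated in WT mice but in neither knockout.

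Whether the response of each knockout differed from that of WT mice was tested on the difference between responses. For Bcl3-/- mice, the loss of Bcl-3 cannot be told apart from strain and intensity scale in this difference. For Nfkb1-/- mice, the loss of p50 cannot be told apart from strain. The Ankrd1 response of Nfkb1-/- mice minus that of WT mice was -1.36 (SE 0.68, 95% confidence interval -2.76 to 0.04, limma adjusted p = 0.421), where 0.176% of all probe sets were called (0.057% higher and 0.119% lower). The Bcl3-/- response minus the WT response was -2.74 (SE 0.68, limma adjusted p = 0.047), where 1.07% were called (0.803% higher and 0.264% lower), and the other Ankrd1 probe set gave -3.03 (limma adjusted p = 0.0307). This last call was close to its threshold. It was lost under 20 of 29 alternative settings for the first probe set and 13 of 29 for the other, although the difference stayed between -3.01 and -1.83 for the first. With every intensity under 20 set to 20 it was -2.05 (limma adjusted p = 0.097). Without WT HU replicate 1 it was -2.26 (limma adjusted p = 0.0984), and without Bcl3-/- WB replicate 2 it was -2.28 (limma adjusted p = 0.0959). Since both differences share the WT arrays, they are not independent of each other.

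The rank of Ankrd1 within each array does not depend on a common factor of scale. It lay at the 52.9th to 86.0th percentile of tested probe sets on Nfkb1-/- HU arrays and the 43.8th to 49.1st on their WB arrays. In Bcl3-/- mice the HU arrays ranked it at the 37.3rd to 60.7th percentile and the WB arrays at the 30.8th to 65.2nd. In WT mice these ranges were the 75.8th to 93.5th on HU arrays and the 38.7th to 47.7th on WB arrays. The 25th percentile of intensity was 44.7 to 46.5 on Bcl3-/- arrays, not far under most Ankrd1 values there, and 5.63 to 6.25 on the Nfkb1-/- and WT arrays. The 95th percentile was 1992 to 2218 and 349 to 394, so the scales did not differ by a constant factor. The part of the scale in the smaller Bcl3-/- response was not tested.

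**Figure D2:**
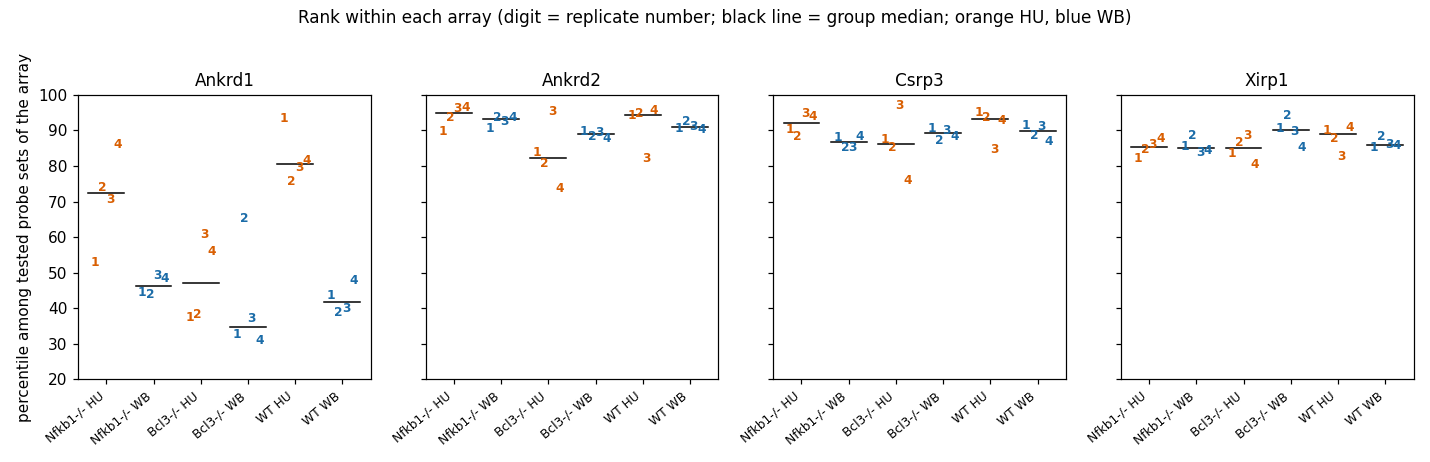
Percentile of Ankrd1, Ankrd2, Csrp3 and Xirp1 among the tested probe sets of each array, with HU in orange and WB in blue. Digits are replicate numbers and black lines are group medians. Ankrd1 moves through the widest range of ranks, and Ankrd2 and Csrp3 stay high on most arrays, with Bcl3-/- HU replicate 4 the lowest for both.

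Among WT HU arrays, the mean levels of macrophage markers and of markers of regenerating or denervated fibres were highest on the array with the highest Ankrd1. On WT HU replicate 1, with an Ankrd1 intensity of 300.2, the mean log2 level of 14 other regeneration and denervation genes was 0.87 above the WT WB mean, against 0.07 to 0.13 on the other WT HU arrays, and their summed intensity was 648 against 248 to 285. Of the 14 genes, 8 to 12 were under an intensity of 20 on a WT HU array. The acetylcholine receptor subunit Chrna1 was at 354 on that array and at 80.8 to 122 on the others, embryonic myosin Myh3 at 30.7 against 6.24 to 7.06, and myogenin (Myog) at 67.2 against 10.3 to 14.5. The mean level of 15 macrophage markers was also highest there, 0.89 above the WT WB mean against 0.16 to 0.47, and their part in the Ankrd1 values was not tested. Without that array Ankrd1 was still called in WT mice (2.67, limma adjusted p = 0.00273). Over all WT HU arrays, on the brightest probe set of each gene, only Chrna1 of the 14 regeneration and denervation genes was called (1.26, limma adjusted p = 0.00932). Pax7 (-0.26), Mymk (-0.36) and Runx1 on its brightest probe set (-0.05) were lower without a call, and the rest were higher. The study listed another Runx1 probe set as upregulated in WT mice, and its values are not given here.

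The genes whose log2 values followed Ankrd1 most closely over the 24 arrays, after the mean of each genotype was subtracted, were Mustn1, a small nuclear protein of the musculoskeletal system (Pearson r = 0.92), Lgals3, the lectin galectin-3 (0.91), the orphan receptor Gprc5b (0.88), the acetylcholine receptor subunit Chrnb1 (0.88) and the annexin Anxa4 (0.87). These are descriptions over arrays that share the unloading contrast. Mustn1 differed by 1.15 in Nfkb1-/-, 0.19 in Bcl3-/- and 1.75 in WT mice, with limma adjusted p of 0.000277, 0.534 and 2.66e-06. Chrnb1 rose by 0.90 in Nfkb1-/- and 1.18 in WT mice and differed by 0.37 in Bcl3-/- mice, where it was not called (limma adjusted p = 0.0581).

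Ankrd2, the family member of slow and stretched fibres, and Csrp3 were not called in any genotype. Ankrd2 had intensities of 165, 299, 528 and 531 on the HU arrays of Nfkb1-/- mice and 195, 298, 257 and 303 on their WB arrays. Bcl3-/- mice had 644, 519.9, 2395 and 363 on HU arrays and 1039, 881, 994 and 777 on WB arrays. WT mice had 337, 361, 97.3 and 443 on HU arrays and 200.5, 257.5, 211 and 173 on WB arrays. The HU arrays thus lay on both sides of the WB arrays in each genotype, with Bcl3-/- replicate 3 far above, and WT replicate 3 far below, the rest of its group.

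Csrp3 shared with Ankrd2 the highest and lowest Bcl3-/- HU arrays and the lowest WT HU array, but not the extreme Nfkb1-/- HU arrays or the highest WT HU array. It had 176, 159.9, 371 and 287 on the HU arrays of Nfkb1-/- mice, against 149, 119, 119 and 156 on their WB arrays. The Bcl3-/- mice had 839, 697, 3502 and 408 on HU arrays and 1126, 800.0, 1060 and 814 on WB arrays. The WT mice had 399, 297, 115.5 and 266 on HU arrays and 222, 162, 207 and 125 on WB arrays. Only in Nfkb1-/- mice was every HU array above every WB array, which was so for 18.6% of all probe sets in one direction or the other (10.7% in WT mice), and the intensities of the nearest arrays were 159.9 and 156.

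The log2 difference of Csrp3 was 0.80 in Nfkb1-/- (SE 0.43, limma adjusted p = 0.269), 0.03 in Bcl3-/- and 0.49 in WT mice, and that of Ankrd2 was 0.41, -0.32 and 0.37, with standard errors of 0.43 for Csrp3 and 0.45 for Ankrd2. The 95% confidence intervals were wide, with -0.53 to 1.34 in Nfkb1-/- and -1.25 to 0.61 in Bcl3-/- mice for Ankrd2. Leaving out single arrays changed the size in each genotype, but the sign only in Bcl3-/- mice. Without Bcl3-/- HU replicate 3 the Bcl3-/- differences were -0.89 for Ankrd2 (limma adjusted p = 0.176) and -0.60 for Csrp3 (limma adjusted p = 0.294), and without Bcl3-/- HU replicate 4 they were 0.02 and 0.44. Without WT HU replicate 3 the WT differences were both 0.86 (limma adjusted p = 0.331 for Ankrd2 and 0.347 for Csrp3).

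Ankrd2 and Csrp3 rose and dipped largely on the same arrays. After the mean of each group was subtracted, their log2 values had a Pearson r of 0.87 over the 24 arrays, which share the RNA of each muscle, and those of Myoz2 and Actn2 had an r of 0.83. For Ankrd1 the corresponding r was 0.37 with Ankrd2 and 0.27 with Csrp3. Bcl3-/- HU replicate 3, the array with the highest Ankrd2 and Csrp3, had a mean level of 10 slow fibre genes 0.74 below the Bcl3-/- WB mean, and the other Bcl3-/- HU arrays were 0.82 to 0.97 below it. The part of the slow fibre genes in these levels was not tested.

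**Figure D3:**
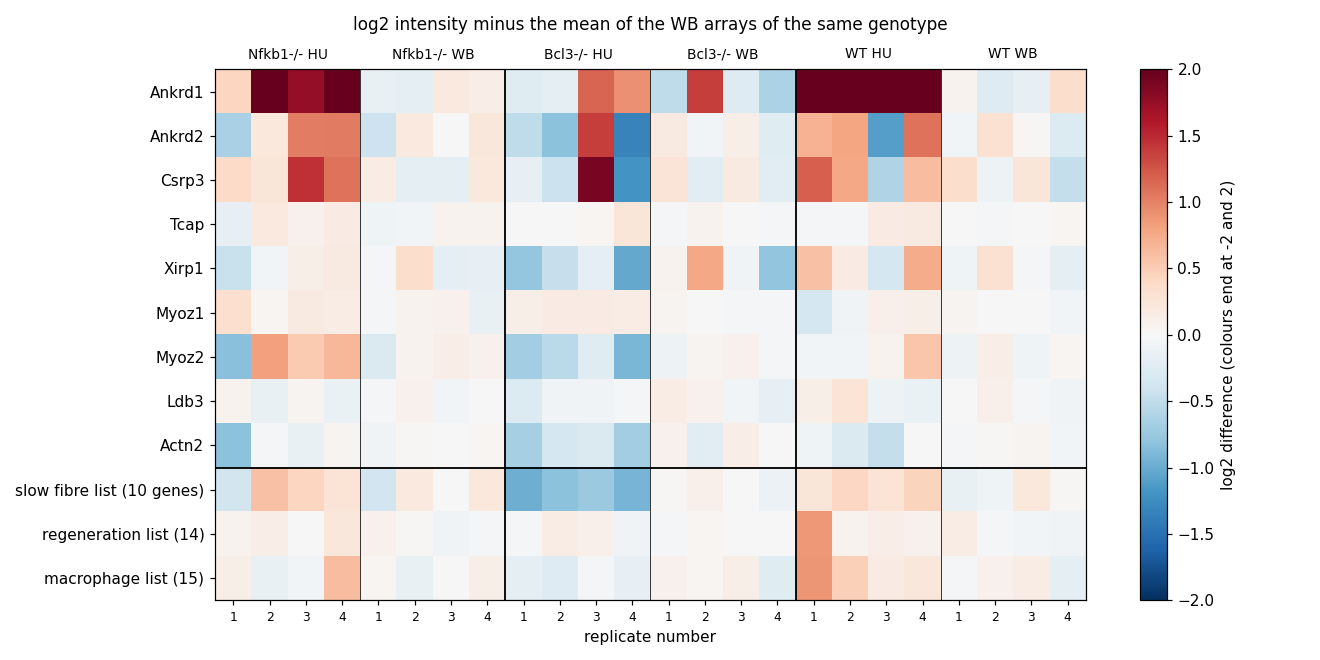
Heat map of log2 intensity minus the mean of the WB arrays of the same genotype, for the 9 genes and for the mean of 3 marker lists, with 1 column an array and replicate numbers below. Red is higher and blue lower, and colours end at -2 and 2. Ankrd1 is red on all WT HU arrays, Ankrd2 and Csrp3 share their extreme Bcl3-/- HU arrays, and the slow fibre list is blue on all Bcl3-/- HU arrays.

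Tcap, the titin cap, showed little difference between any HU and WB group. Its intensities were 2252 to 2899 on Nfkb1-/- HU and 2388 to 2658 on Nfkb1-/- WB arrays, 11076 to 13220.4 on Bcl3-/- HU and 10909 to 11748 on Bcl3-/- WB arrays, and 2581 to 3015 on WT HU and 2597 to 2731 on WT WB arrays. The groups overlapped in each genotype. The log2 difference was 0.07 in each genotype (SE 0.08), with intervals that ended at -0.11 and 0.24. These were among the narrowest intervals of the 9 genes.

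Xirp1, which marks myofibrils under repair, had its widest difference in Bcl3-/- mice. There it had 628, 777, 935 and 526.5 on HU arrays and 1127, 1828, 1022 and 619 on WB arrays, where WB replicate 4 was under 3 of the HU arrays. It had 89.8, 117.5, 132 and 139 on Nfkb1-/- HU arrays and 121, 156, 108 and 109.7 on Nfkb1-/- WB arrays. WT mice had 192, 144, 101 and 214 on HU arrays and 120.5, 159, 125 and 113 on WB arrays. The difference was -0.05 in Nfkb1-/-, -0.61 in Bcl3-/- (SE 0.25, limma adjusted p = 0.123) and 0.29 in WT mice, so no genotype had a call. Without Bcl3-/- WB replicate 4 the Bcl3-/- difference was -0.87 and was called (limma adjusted p = 0.0228).

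The calsarcins were not called on their brightest probe sets in any genotype. Myoz2, the calsarcin of slow fibres and heart, had 1664, 1859, 2277 and 1439 on Bcl3-/- HU arrays and 2524, 2801, 2854 and 2633 on Bcl3-/- WB arrays. It had 333, 1045, 851 and 946 on Nfkb1-/- HU arrays against 487, 626, 652 and 629 on Nfkb1-/- WB arrays. WT mice had 697, 693, 756 and 1059 on HU arrays and 672, 793.5, 681 and 742 on WB arrays. All Bcl3-/- HU arrays were below all WB arrays, as for 4.07% of all probe sets lower and 15.4% in either direction, and in Nfkb1-/- mice 3 HU arrays were above all WB arrays while replicate 1 was below all of them.

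The Myoz2 difference was -0.60 in Bcl3-/- mice (SE 0.23, limma adjusted p = 0.0987), which did not pass the threshold, 0.29 in Nfkb1-/- and 0.13 in WT mice. With the replicate number as a block, or with the 8 Bcl3-/- arrays fitted apart, the Bcl3-/- difference passed it (limma adjusted p = 0.0414 and 0.0304). Without Nfkb1-/- HU replicate 1 the Nfkb1-/- difference was 0.67 and was called (limma adjusted p = 0.00447). That array also had the lowest slow fibre level of its group, 0.37 below the Nfkb1-/- WB mean, where the other Nfkb1-/- HU arrays were 0.28 to 0.59 above it.

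Myoz1, the calsarcin of fast fibres, had a brighter and a dimmer probe set. On the brighter one the intensities were 13202 to 13686 on Bcl3-/- HU and 11959 to 12606 on Bcl3-/- WB arrays, with no overlap, as for 11.4% of all probe sets higher, and a difference of 0.15 (SE 0.09, limma adjusted p = 0.305). On the dimmer one they were 619.5, 641, 625 and 538 on Bcl3-/- HU arrays and 350.1, 562, 408.5 and 438 on Bcl3-/- WB arrays, and the difference of 0.48 was called (SE 0.14, limma adjusted p = 0.0327) although WB replicate 2 lay above HU replicate 4. Both probe sets thus had the same sign and only the dimmer one passed the threshold. In Nfkb1-/- mice the differences were 0.18 and 0.34, and in WT mice -0.05 and 0.09, none of them called.

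Ldb3, the PDZ-LIM scaffold, had 3 probe sets, none of which was called for unloading in any genotype. On the brightest, the difference was -0.04 in Nfkb1-/-, -0.11 in Bcl3-/- and 0.04 in WT mice, each with an SE of 0.09. The Bcl3-/- arrays had 7414, 8530.3, 8522 and 8830.0 in HU and 9954, 9530.5, 8628 and 7991 in WB mice, which overlapped. On the other probe sets the Bcl3-/- differences were -0.22 and -0.20.

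Actn2, the α-actinin shared by all fibre types, was the member that fell in Bcl3-/- mice. Its intensity was 4066, 5033, 5288 and 3959 on Bcl3-/- HU arrays, against 6835, 5527, 7042 and 6472 on Bcl3-/- WB arrays. On Nfkb1-/- arrays it was 752, 1304, 1200.5 and 1383 in HU and 1276, 1353, 1339 and 1371.5 in WB mice. WT mice had 1319.5, 1149.5, 1012 and 1418 on HU arrays and 1385, 1425.5, 1463 and 1357 on WB arrays. All Bcl3-/- HU arrays were below all WB arrays, as were those of 4.07% of all probe sets in that contrast (10.9% in Nfkb1-/- and 4.89% in WT mice), and the groups overlapped in the other genotypes.

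The Actn2 difference was -0.50 in Bcl3-/- mice (SE 0.14, limma adjusted p = 0.0274), -0.24 in Nfkb1-/- (SE 0.14, limma adjusted p = 0.328) and -0.21 in WT mice (SE 0.14, limma adjusted p = 0.486). The Bcl3-/- response minus the WT response was -0.29 (95% confidence interval -0.71 to 0.13, limma adjusted p = 0.579), so a difference between the genotypes was not shown. The Bcl3-/- call was lost when HU replicate 1, HU replicate 4, WB replicate 1 or WB replicate 3 was left out (-0.47 to -0.43, limma adjusted p of 0.056 to 0.0934).

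The RNA of slow fibre genes moved with these Bcl3-/- values. Of 10 slow fibre genes, 0 rose and 8 fell in Bcl3-/- HU mice, where 7.59% of all probe sets were called higher and 2.81% lower. Their summed intensity was 17059 to 19262 on HU arrays against 30784 to 36510 on WB arrays. Slow myosin (Myh7) fell by 0.73 and the slow myosin light chain Myl2 by 2.52 on the log2 scale (limma adjusted p = 0.0161 and 5.24e-06). Of the same 10 genes 4 rose and 0 fell in Nfkb1-/- mice, where 4.79% of all probe sets were called higher and 6.59% lower. None was called in WT mice, where the median difference was 0.39 and 3.97% of all probe sets were called. Of 11 fast fibre genes 0 rose and 1 fell in Bcl3-/- mice, with a median difference of 0.00, and their mean level was 0.08 to 0.13 below the WB mean on the HU arrays. The part of the slow fibre genes in the Actn2, Myoz2 and Xirp1 values was not tested. Of 11 fibroblast and tendon genes, 6 fell in Nfkb1-/-, 6 in Bcl3-/- and 3 in WT mice and 0 rose. Of all probe sets, 6.59%, 2.81% and 1.66% were called lower in these genotypes. The mean of the 10 muscle markers lay between -0.06 and 0.04 from its WB mean on the HU arrays.

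**Figure D4:**
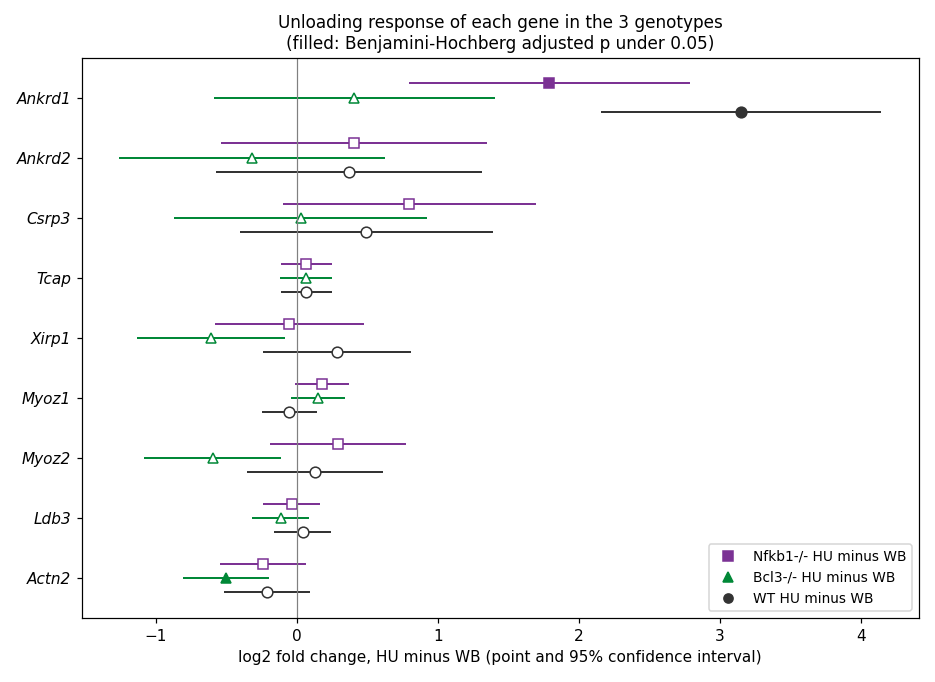
Unloading response of each gene, log2 HU minus WB, as a point with its 95% confidence interval, in Nfkb1-/- (squares), Bcl3-/- (triangles) and WT mice (circles). Filled points had a limma adjusted p under 0.05. Filled points are Ankrd1 in Nfkb1-/- (1.79) and WT mice (3.15) and Actn2 in Bcl3-/- mice (-0.50), and the intervals of Tcap, Myoz1 and Ldb3 are narrow around 0.

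Among the differences between responses, no gene but Ankrd1 was called. For Bcl3-/- minus WT, 8 of the 9 values were negative, where 45.6% of all probe sets were, and the Tcap value among them was 0.00 to 2 decimals. The median was -0.47 against 0.02 over all probe sets. The 9 values come from the same arrays and some of the genes varied together, so they are not independent of each other. An unadjusted p under 0.05 was found for 3 of the 9, where 13.6% of all probe sets had one. These were Ankrd1, Xirp1 (-0.90, limma adjusted p = 0.258) and Myoz2 (-0.73, limma adjusted p = 0.323). For Nfkb1-/- minus WT the median was 0.00, 4 of the 9 values were positive and 5 negative, and 0 had an unadjusted p under 0.05, where 12.3% of all probe sets had one.

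**Figure D5:**
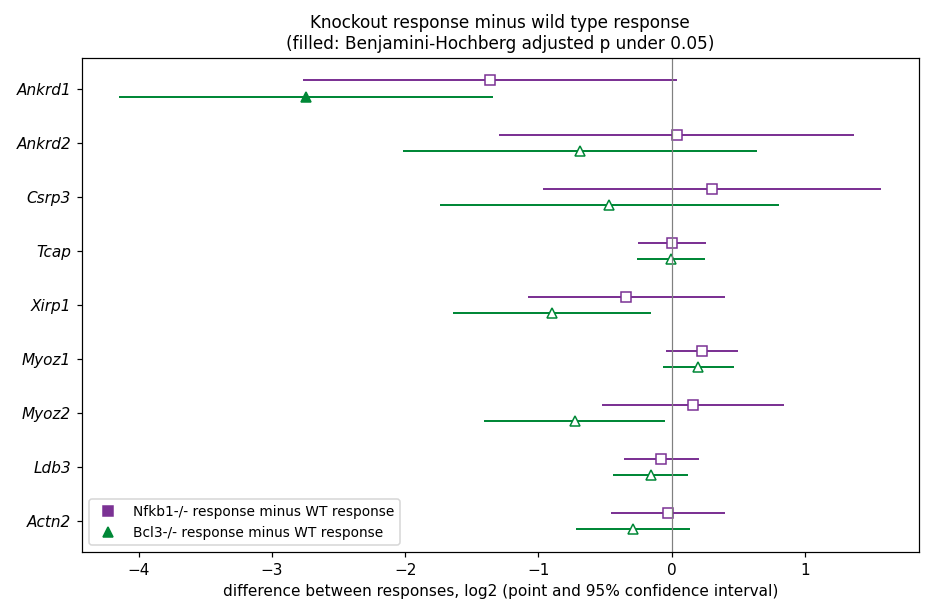
Response of each knockout minus the WT response for the 9 genes, on the log2 scale, as a point with its 95% confidence interval, for Nfkb1-/- (squares) and Bcl3-/- mice (triangles). The filled point, Ankrd1 in Bcl3-/- mice (-2.74), had a limma adjusted p of 0.047.

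In weight bearing muscle, Nfkb1-/- and WT mice could be compared on one scale, but they were of different strains, so genotype and strain cannot be told apart. None of the 9 genes was called, where 0.902% of all probe sets were (0.57% higher and 0.332% lower). Myoz2 was lower on all Nfkb1-/- WB arrays than on all WT WB arrays, with a difference of -0.28 (limma adjusted p = 0.905), and such separation was seen for 3.31% of probe sets lower and 3.33% higher, 6.64% in all. The middle Ldb3 probe set had 757, 690.2, 688 and 749 on Nfkb1-/- WB arrays against 557, 615, 580.5 and 504 on WT WB arrays, a difference of 0.36 (SE 0.12, limma adjusted p = 0.301). Its dimmest probe set differed by 0.42 (limma adjusted p = 0.565) and its brightest by 0.02, so the 3 probe sets of this gene were not alike.

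The wider Z-disc and titin-associated list held 44 other genes, of which 34 had a tested probe set. In Nfkb1-/- HU mice 3 of these rose and 1 fell, in Bcl3-/- mice 3 rose and 3 fell, and in WT mice 1 rose and 1 fell, with median differences of 0.00, -0.03 and 0.04. Over all probe sets tested, 11.4%, 10.4% and 3.97% were called in the same order of genotypes. Counts this small say little about the list. In Nfkb1-/- mice the PDZ-LIM protein Pdlim5 rose by 0.58, the actin-binding LIM protein Ablim1 by 0.48 and desmin (Des), the intermediate filament that links Z-discs, by 0.45, and vinculin (Vcl) fell by 0.32, with limma adjusted p of 0.00147, 0.0213, 0.00157 and 0.0488. In Bcl3-/- mice the titin-bound protease Capn3 rose by 0.44, the ubiquitin ligase Trim54 by 0.43 and the fast fibre α-actinin Actn3 by 0.25, and Pdlim1 fell by 0.95, the non-muscle α-actinin Actn4 by 0.44 and the co-chaperone Bag3 by 0.40.

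Bag3, which clears damaged filamin at the Z-disc, was also the gene that fell in WT mice. It had 136, 120.3, 114 and 146 on WT HU arrays against 195, 198.5, 184 and 169.7 on WT WB arrays, a difference of -0.54 with no overlap (limma adjusted p = 0.0105), and the caveola protein Cavin4 rose by 0.38 (limma adjusted p = 0.0206). Actn2 and Actn3 had differences of opposite sign in Bcl3-/- mice. Actn3 had 17374, 17170.4, 16690 and 16873 on Bcl3-/- HU arrays and 14857, 13090.5, 15046 and 14485 on Bcl3-/- WB arrays, with no overlap (limma adjusted p = 0.0171). Capn3 was the only one of the 34 whose Bcl3-/- response was called different from the WT response (0.61, limma adjusted p = 0.0475), and none was called for Nfkb1-/- minus WT. Of all probe sets, 1.07% and 0.176% were called in these contrasts.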

How the data were processed

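Per the methods of the study, the authors scanned Affymetrix mouse arrays (scanner software GCOS), read them into GenePattern 3.2.1 and made expression values with RMA and quantile normalization. They deposited 1 table of linear intensity values per probe set for the 24 arrays, and every value column was used. The genome build of the probe annotation is not given in the sources used here. Gene names came from the platform annotation, in which 20380 of 22626 probe sets without controls are listed with 1 gene, 691 with several and 1555 are not listed.

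Probe sets above an intensity of 20 on at least 4 arrays were tested (19294). The log2 intensity was fitted with 1 mean per group over all 24 arrays (R 4.3.3 with lmFit, contrasts.fit and eBayes of limma 3.58.1, 18 residual and 5.89 prior degrees of freedom), two-sided, with Benjamini-Hochberg adjustment over all probe sets. A gene was represented by its probe set with the highest mean, and the others are given beside it. The study tested each genotype apart with a t-test and q-values. This was run as an alternative, called the methods' t-test, but on the probe sets tested here and not on those that passed the filter of the study. Simulated arrays with known fold changes were used to test the scripts. Promoter windows were read from a RefSeq table (GRCm38.p6), which gave entries for Ankrd1, Ankrd2, Ankrd23, Csrp3, Actn2, Ldb3 and Myoz2.

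The genes and lists were chosen with earlier results of these data known. Every member is named with all of its probe sets. From the wider Z-disc list up to 4 called genes per contrast and direction are named, from the M-band and calcineurin lists up to 2 per contrast, and beside them the 5 genes closest to Ankrd1. Chrna1, Myh3, Myog, Myh7 and Myl2 were named after their values were seen. Same-numbered HU and WB arrays did not pair: the correlation of their deviations was -0.17 to 0.22 and was over 0.1 in 2 of 12 pairs, so no block was used. Alternatives were other filters, a floor of 20, only the groups compared, other variance models, array weights, quantile normalization over all arrays, centring, log2 of the intensity plus 16, the replicate number as a block, another choice of probe set, each array left out and, added after seeing the data, pairs of arrays left out and the arrays of each intensity scale fitted apart. The ChIP and qPCR measurements of the study were not used.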

Additional observations from a re-analysis of the deposited data

Results flagged for a closer look

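In 78 groups of 4 arrays (13 probe sets in 6 groups), 6 held an array far from the other 3 by Dixon's ratio on linear intensities. For normally distributed values chance alone flags about 1 in 20, a share that need not hold for linear intensities. The ratio was not computed on log2 values, which the tests used. Probe sets of the same gene are not independent. WT HU replicate 1 had Ankrd1 at 300.2, where the other WT HU arrays had 64.2 to 94.2, and at 295.3 on the other probe set, where they had 59.8 to 94.6. Bcl3-/- WB replicate 2 had Ankrd1 at 225, where the other WB arrays had 55.7 to 72.3. Bcl3-/- HU replicate 3 had Ankrd2 at 2395 and Csrp3 at 3502, where the other HU arrays had 363 to 644 and 408 to 839. Nfkb1-/- WB replicate 1 had Myoz2 at 487, where the other WB arrays had 626 to 652, and its slow fibre genes averaged 0.39 below the Nfkb1-/- WB mean, where those of the other WB arrays lay between -0.01 and 0.21.

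The Ankrd1 response to unloading differed between Bcl3-/- and WT mice by -2.74 (limma adjusted p = 0.047) on one probe set and by -3.03 (limma adjusted p = 0.0307) on the other, in a test of the difference itself. The call was lost under 20 of 29 settings on the first probe set and 13 of 29 on the other. With a floor of 20 the first was -2.05 (limma adjusted p = 0.097). The values of Bcl3-/- WB replicate 2 and of WT HU replicate 1 enter this difference.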

How the results depend on the processing

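For single genes, 54 values were recomputed under 1359 settings in all. Of these, 1316 kept their direction and side of the threshold, 34 lost a call, 9 gained one and 0 turned a called direction, while 56 values without a call, in 19 results, changed sign. The number of members called was 1 in Nfkb1-/- mice and was 0 with the filter of the study, a floor of 20, log2 of the intensity plus 16 and both forms of the methods' t-test, 2 with HU replicates 1 and 4 left out together, and 0 to 2 with single arrays left out. In Bcl3-/- mice it was 1 (Actn2) and was 2 (Actn2 and Myoz2) with only the groups compared, quantile normalization over all arrays, the replicate block and each intensity scale fitted apart, and 0 to 2 with single arrays left out. Both forms of the methods' t-test called Myoz1 in place of Actn2. In WT mice it was 1 and was 0 with both forms of the methods' t-test (Ankrd1 adjusted p = 0.102 by Benjamini-Hochberg and 0.0721 as a q-value), and 1 with any array left out. For the Bcl3-/- minus WT response it was 1 and was 0 with no filter, the filter of the study, a floor of 20, a robust variance with a trend, only the groups compared, quantile normalization, log2 of the intensity plus 16, the replicate block, and Bcl3-/- HU array 3 and WB array 2 left out together, and 0 to 1 with single arrays left out. The cause was not tested.

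For the wider Z-disc list the count in Nfkb1-/- mice was 4, against 7 by the methods' t-test with q-values and 2 to 4 with single arrays left out. In Bcl3-/- mice it was 6, against 10 with the filter of the study, quantile normalization or log2 of the intensity plus 16, 11 with a floor of 20, 2 with only the groups compared, each intensity scale fitted apart or the methods' t-test with Benjamini-Hochberg adjustment, 3 without Bcl3-/- HU array 3 and WB array 2, and 3 to 8 with single arrays left out. In WT mice it was 2, against 4 with a trend and robust variance, 1 with only the groups compared, 0 with both forms of the methods' t-test or without WT HU arrays 1 and 3, and 1 to 3 with single arrays left out. The replicate numbers did not pair the arrays, and 2 of 12 HU arrays correlated best with their own number. With the number as a block the Bcl3-/- minus WT call of Ankrd1 was lost (adjusted p = 0.0581), Myoz2 was gained, and the list counts were within 1.5 times. Ankrd1 intensities were under 20 on all WB arrays of Nfkb1-/- and WT mice, which limits the precision of their log2 differences.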

Other observations

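The calsarcins bind calcineurin, and a list of 13 calcineurin and NFAT genes was looked at beside them. In Nfkb1-/- HU mice 2 rose and 2 fell, in Bcl3-/- mice 1 rose and 1 fell, and in WT mice 0 rose and 1 fell. Of all probe sets, 11.4%, 10.4% and 3.97% were called in these genotypes. Rcan2, a regulator of calcineurin, was called lower in each genotype. It had 106, 128, 133 and 106 on Nfkb1-/- HU arrays against 167, 204, 207 and 177 on their WB arrays, and it fell by 0.68 on the log2 scale in Nfkb1-/-, 0.55 in Bcl3-/- and 0.53 in WT mice, with limma adjusted p of 0.000474, 0.00314 and 0.00742. Rcan1, its paralog, fell by 0.71 in Nfkb1-/- mice (limma adjusted p = 0.00825).

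Of 14 M-band, thick filament and actin filament assembly genes, 8 had a tested probe set. The M-band protein Myom1 rose by 0.28 in Nfkb1-/- mice and its fast fibre relative Myom2 by 0.31 in Bcl3-/- mice (limma adjusted p = 0.04 and 0.0428), and no other was called for unloading in any genotype. Of all probe sets, 11.4% were called in Nfkb1-/-, 10.4% in Bcl3-/- and 3.97% in WT mice.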
